A study of Mus musculus with 8 samples.

Results

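A set of 10 genes of the NRF2 pathway and of antioxidant defence, of the 31723 genes listed, was followed in muscle stem cells of old and young mice. They are Nfe2l2, which encodes the transcription factor NRF2, its inhibitor Keap1, and Nqo1, Hmox1, Gclc, Gclm, Srxn1, Gsr, Sod3 and Cat. They were chosen by gene symbol, and all 10 passed the minimum for testing, an average of 10 normalized counts or more across the 8 libraries. RNA was sequenced from freshly isolated cells, sorted from the hindlimbs of wild-type C57BL/6 mice of 20 months (old, 4 libraries) and of 3 months (young, 4 libraries). Muscle stem cells express Pax7, sit under the basal lamina of the fibre and rebuild muscle after injury. The labels do not say whether a library came from 1 animal or from a pool, so p-values measure the spread between these samples.

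NRF2 is held in the cytoplasm by KEAP1, which hands it to a ubiquitin ligase for degradation. When oxidants or electrophiles modify KEAP1, NRF2 accumulates, pairs with a small MAF protein and binds antioxidant response elements in its target genes, while BACH1 competes for these sites. The targets make glutathione, reduce peroxides and quinones, break down haem and supply NADPH, so that NRF2 protein and its targets can change with no change in Nfe2l2 RNA.

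The promoters below are those of the members in which an antioxidant response element core was found, with those of Htatip2 and Me1, a pair of further target genes that were higher in old cells. Each runs from 250 bases before the annotated start to 50 bases after it and is taken from RefSeq on build GRCm38.p6. The letters searched were TGACNNNGC and TGAGNNNGC, the core of the antioxidant response element, and TGANTCA, the AP-1 site, on both strands, and capitals mark every match.
Srxn1, chr2:152105274-152105573, plus strand: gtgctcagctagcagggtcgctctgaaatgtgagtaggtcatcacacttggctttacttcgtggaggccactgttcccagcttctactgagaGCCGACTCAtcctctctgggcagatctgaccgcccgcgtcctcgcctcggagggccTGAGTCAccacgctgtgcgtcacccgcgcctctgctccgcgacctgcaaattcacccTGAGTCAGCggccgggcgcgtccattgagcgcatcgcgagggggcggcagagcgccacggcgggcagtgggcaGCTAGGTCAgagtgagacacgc
Gclm, chr3:122245307-122245606, plus strand: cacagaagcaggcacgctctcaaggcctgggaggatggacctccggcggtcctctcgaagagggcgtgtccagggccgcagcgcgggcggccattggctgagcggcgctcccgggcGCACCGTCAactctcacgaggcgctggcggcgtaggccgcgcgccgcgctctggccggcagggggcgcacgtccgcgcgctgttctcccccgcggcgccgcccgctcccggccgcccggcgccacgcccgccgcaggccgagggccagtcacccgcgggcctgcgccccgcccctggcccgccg
Nfe2l2, chr2:75704614-75704913, minus strand: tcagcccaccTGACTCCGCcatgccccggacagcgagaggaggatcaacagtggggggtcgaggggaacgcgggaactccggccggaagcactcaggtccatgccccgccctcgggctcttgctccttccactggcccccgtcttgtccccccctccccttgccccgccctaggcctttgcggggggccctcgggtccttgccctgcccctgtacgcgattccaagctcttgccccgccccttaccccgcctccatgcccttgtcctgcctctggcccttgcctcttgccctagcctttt
Htatip2, chr7:49759262-49759561, plus strand: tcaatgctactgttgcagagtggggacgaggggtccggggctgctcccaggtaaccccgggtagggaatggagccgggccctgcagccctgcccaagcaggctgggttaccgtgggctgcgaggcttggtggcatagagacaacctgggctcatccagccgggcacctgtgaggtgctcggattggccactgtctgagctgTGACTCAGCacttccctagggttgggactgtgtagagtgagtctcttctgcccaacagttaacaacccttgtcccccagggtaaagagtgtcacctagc
Me1, chr9:86695865-86696164, minus strand: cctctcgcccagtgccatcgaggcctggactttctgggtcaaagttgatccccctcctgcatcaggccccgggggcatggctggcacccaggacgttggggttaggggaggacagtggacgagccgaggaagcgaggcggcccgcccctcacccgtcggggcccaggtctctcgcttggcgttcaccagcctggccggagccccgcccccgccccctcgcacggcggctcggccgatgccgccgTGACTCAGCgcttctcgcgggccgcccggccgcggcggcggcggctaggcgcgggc
The RefSeq table matched 6 of the 10 genes. Of these, Srxn1, Gclm and Nfe2l2 held a match to either core, and Cat, Keap1 and Nqo1 held none in this window. Over all 32851 promoters of the table, 27.8% held either core and 7.81% held the AP-1 letters. Srxn1 held 3 matches to the cores, and 1 of them, 45 bases before the start, overlaps AP-1 letters (TGAGTCAGC). Htatip2 held TGACTCAGC 49 bases before the start shown, 1 of its 2 in the table. Me1 held the same letters 6 bases before the start shown, and its other promoter in the table held no match. Among the further targets higher in old cells, Akr1b8, Ephx1 and Ftl1 held neither core in this window. A match describes letters only and is not evidence of binding.

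Depth and the makeup of the sorted cells were as follows. Libraries held between 19.0 and 26.7 M reads assigned to genes in old and between 21.6 and 34.7 M in young. Across 13 muscle stem cell markers, the summed level was between 218035 and 253748 normalized counts in old and between 224164 and 271705 in young, and 2 of 13, Itga7 and Calcr, were lower in old cells. Markers of other cells were present too. The sum over 12 markers of fibro-adipogenic progenitors, the stromal cells between muscle fibres, was between 115338 and 289592 in old and between 86983 and 155338 in young, and 3 of 12 were higher in old cells. The sum over 6 tenocyte markers was between 11718 and 107452 in old and between 3189 and 8357 in young, with 5 of 6 higher. The 12 macrophage markers summed to between 1520 and 5572 in old and between 1152 and 2768 in young, with 0 of 12 passing limma (adjusted p under 0.05). The sum over 10 endothelial markers was between 22929 and 59114 in old and between 19960 and 72325 in young, and limma called 0 of 10. Of the myofibre, red blood cell and Schwann cell markers limma called 0 of 8, 0 of 5 and 0 of 4, and of 14 dissociation-induced genes 1, Ier3, was higher in old cells. For all these counts, limma called 3.34% of all tested genes higher and 1.88% lower in old cells. None of the markers in these lists was at 0 in every library.

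Of the 10 genes, 1 rose in old cells and none fell (limma on log2(normalized count + 1), Benjamini-Hochberg adjusted p under 0.05 over 14822 tested genes). Sod3, the secreted extracellular superoxide dismutase, was that gene. Over all tested genes 5.22% were called, 3.34% as higher and 1.88% as lower, and the members' count of 1 in 10 rests on a single gene. The median log2 fold change (old minus young) was 0.092 over the 10 genes and 0.045 over all tested genes. The members' median was 0.013, 0.031 and 0.051 when young library 1, young library 4 or old library 2 was omitted, and -0.061 with the dissociation-induced genes as a covariate. No other member had an unadjusted p under 0.05, which 20.8% of tested genes had. EdgeR on recovered reads called 4.77% of genes (2.76% higher and 2.01% lower), and among the members Sod3 alone. DESeq2 called 9.24% (5.18% higher and 4.06% lower), and again Sod3 alone among the members. In 1 member, Sod3, all old libraries lay above all young ones, as in 7.99% of tested genes, and in none did they lie below, as in 5.46%.

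**Figure D1:**
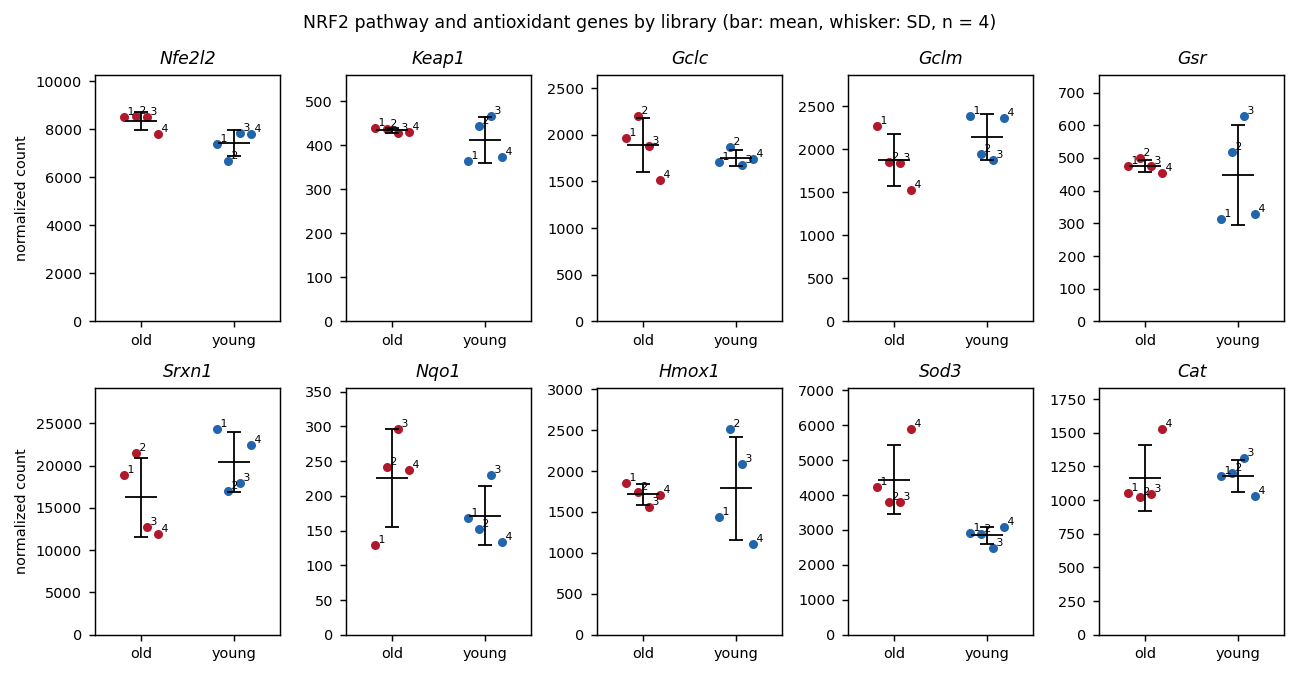
Normalized counts of the 10 genes in each library, old left and young right, with the mean as a bar and the SD as whiskers (n = 4 each); digits give the library number. In Sod3 every old library lies above every young one, and in the other 9 panels the ages overlap; Hmox1 and Gsr spread widely in young cells and little in old cells.

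Neither Nfe2l2 nor its inhibitor Keap1 passed the test. Nfe2l2 had 8517, 8571, 8528 and 7798 normalized counts in old libraries 1 to 4, against 7394, 6699, 7853 and 7819 in young libraries 1 to 4. Old libraries 1 to 3 were above every young library, and old library 4 lay just below the highest young ones. The log2 fold change was 0.17 ± 0.081 (SE), with a 95% interval of -0.012 to 0.35 (limma adjusted p = 0.274). Keap1 had 439, 436, 428 and 431 normalized counts in old libraries and 363, 444, 467 and 373 in young libraries. The old values fell inside the young range, in which libraries 2 and 3 were high and 1 and 4 low (log2 fold change 0.083 ± 0.12, interval -0.18 to 0.35, adjusted p = 0.755). An antisense transcript model, Gm16754, overlaps 10.9% of the exon bases of Keap1 on the opposite strand, and the labels do not state strandedness. Per kilobase of exon, Nfe2l2 RNA exceeded Keap1 RNA 35.0 ± 1.46-fold in old cells and 33.3 ± 5.14-fold in young cells (SD, n = 4 each), with overlapping ranges.

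The enzymes of glutathione synthesis did not pass the test in either direction. GCLC is the catalytic and GCLM the modifier subunit of glutamate-cysteine ligase, the rate-limiting step. Gclc had 1966, 2204, 1881 and 1512 normalized counts in old libraries and 1712, 1868, 1679 and 1735 in young libraries. Old library 4 was the lowest of all 8 and old library 2 the highest, so the young range lay inside the old one (log2 fold change 0.10 ± 0.11, adjusted p = 0.674). Gclm had 2270.2, 1848, 1844 and 1531 in old libraries and 2393, 1951, 1880 and 2367 in young libraries. Its log2 fold change was -0.20 ± 0.13 (interval -0.50 to 0.091, adjusted p = 0.432), and old library 1 overlapped the young values. The ratio of Gclm to Gclc per kilobase was 0.610 ± 0.0794 in old cells and 0.754 ± 0.108 in young cells, and the ranges overlapped. Gsr, the NADPH-dependent reductase that recycles oxidized glutathione, had 475, 498, 474 and 453 normalized counts in old libraries. In young libraries it had 312, 517, 629 and 328, so that all old values lay between the low pair (1 and 4) and the high pair (2 and 3) of young libraries (log2 fold change 0.15 ± 0.21, adjusted p = 0.746).

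Srxn1, the sulfiredoxin that reactivates over-oxidized peroxiredoxins, was the most abundant of the 10. It had 18874, 21516, 12774 and 11863 normalized counts in old libraries and 24345, 17054, 17900.2 and 22478 in young libraries. Old libraries 3 and 4 were below all young ones, while old libraries 1 and 2 lay within the young range. The difference did not pass the test (log2 fold change -0.36 ± 0.20, interval -0.80 to 0.082, adjusted p = 0.344). Its ratio per kilobase to Prdx1, one of the peroxiredoxins it repairs, was 1.74 ± 0.505 in old cells and 2.22 ± 0.343 in young cells, also with overlap.

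Nqo1 and Hmox1, the quinone reductase and the inducible haem oxygenase often used as readouts of NRF2, did not pass either. Nqo1 was low, with 129, 242, 296 and 237 normalized counts in old libraries and 169, 153, 231 and 133 in young libraries. Old library 1 was the lowest of all 8, and the other old libraries were above every young one (log2 fold change 0.36 ± 0.27, interval -0.23 to 0.96, adjusted p = 0.492). The Nqo1 change was 0.61 with old library 1 omitted (adjusted p = 0.172) and 0.21 with old library 3 omitted, and 0.042 with the dissociation covariate. At its lowest, 137 reads, the counting error alone is an SD of 8.54%, against 31.1% between old and 24.6% between young libraries. Hmox1 had 1856, 1743, 1556 and 1702 normalized counts in old libraries and 1434, 2513, 2091 and 1107 in young libraries. As for Gsr and Keap1, the old values fell between a low pair (1 and 4) and a high pair (2 and 3) of young libraries. Young libraries 1 and 4 were the 2 lowest of the young in 27.4% of tested genes, and in Cat too. They were the 2 highest in 20.3%, among them Srxn1, Gclm and Sod3. The Hmox1 change was 0.0096 ± 0.22 on the log2 scale, with an interval of -0.48 to 0.50 (adjusted p = 0.987).

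Sod3 had 4243, 3806, 3811 and 5891 normalized counts in old libraries and 2925, 2888, 2491 and 3079 in young libraries. All old libraries were above all young ones, with the lowest old value at 3806 and the highest young one at 3079. The mean was 4438 ± 990.02 in old cells and 2846 ± 250.4 in young cells (SD, n = 4 each), a ratio of 1.56. The log2 fold change was 0.62 ± 0.14 (interval 0.31 to 0.93, adjusted p = 0.0333). Leaving out any one of the young libraries 1, 2, 3 and 4, or of the old libraries 1 and 2, ended the call for Sod3 (limma adjusted p = 0.07595, 0.06247, 0.05627, 0.06452, 0.07818 and 0.05098), at a log2 fold change between 0.56 and 0.69. Omitting old library 4, the highest, gave a change of 0.48 (adjusted p = 0.04335), and omitting old library 3 also kept it. The call was also lost without the variance trend (adjusted p = 0.0874).

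In bulk RNA, more cells of a type and more RNA per cell cannot be told apart, and SOD3 is known to be made by fibroblasts and vascular smooth muscle cells. The sum over 8 smooth muscle and pericyte markers was between 27379 and 30257 normalized counts in old and between 20626 and 36069 in young. Of these 8 markers, 1, Abcc9, was higher in old cells, where 3.34% of all tested genes were. With the mean log2 level of the fibro-adipogenic and tenocyte markers as a covariate, the Sod3 change was 0.43 ± 0.23 (adjusted p = 0.623). With that of the macrophage markers it was 0.46 ± 0.14 (adjusted p = 0.146), and with that of dissociation-induced genes 0.81 ± 0.17 (adjusted p = 0.0671). Over all tested genes these 3 models called 3, 144 and 80 genes higher, against 495 without a covariate. The sums over the 12 fibro-adipogenic and the 12 macrophage markers overlapped between the ages. The tenocyte sum did not, its lowest old value being 11718 and its highest young value 8357. Of the fibro-adipogenic markers the 3 that rose, Dcn, Lum and Smoc2, did not overlap either. Dcn, which encodes the matrix proteoglycan decorin, had 43419, 76702, 20128 and 55205 normalized counts in old libraries and 8032, 15990, 6124 and 7567 in young libraries. The median log2 fold change over the 12 was 1.73, but they did not all rise. Col3a1 leaned lower, with 15462, 23250, 15516 and 28526 in old libraries and 35268, 36758, 27063 and 23434 in young libraries. In Ly6a the ages overlapped. Of the markers averaged in the fibro-adipogenic and tenocyte covariate, 3 of 12 and 5 of 6 were themselves higher in old cells. That covariate therefore carries part of the age difference, and its model cannot tell the 2 apart. The part of stromal cells in the Sod3 difference was not tested.

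**Figure D2:**
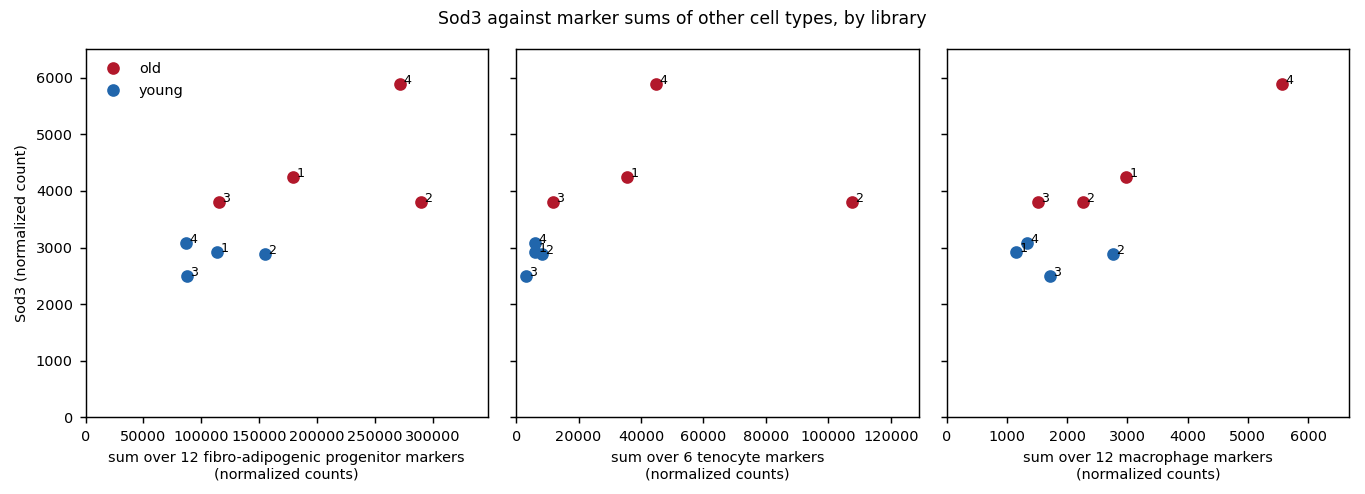
Sod3 normalized counts (vertical axis) against the summed normalized counts of 12 fibro-adipogenic progenitor markers (left), 6 tenocyte markers (middle) and 12 macrophage markers (right), 1 point per library with its number. The 4 old libraries lie between 3806 and 5891 Sod3 counts, above all young libraries; the ages overlap along the horizontal axis for the fibro-adipogenic and macrophage sums and are apart for the tenocyte sum.

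The other superoxide dismutases, Sod1 of the cytosol and Sod2 of mitochondria, were named after their values were seen and did not pass. Sod2 averaged 4349 ± 676 normalized counts in old cells and 3562 ± 740.5 in young cells (log2 fold change 0.30 ± 0.16, adjusted p = 0.317). Sod1 was at -0.057 ± 0.11 (adjusted p = 0.814). Cat, the peroxisomal catalase that breaks down hydrogen peroxide, had 1055, 1019.8, 1045 and 1528 in old libraries and 1180.1, 1199, 1313 and 1029 in young libraries. Old library 4 stood above all others, and the remaining 3 old libraries lay at or just below the low end of the young range (log2 fold change -0.038 ± 0.14, adjusted p = 0.917). Omitting old library 4, Cat changed by -0.18 (adjusted p = 0.4455).

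**Figure D3:**
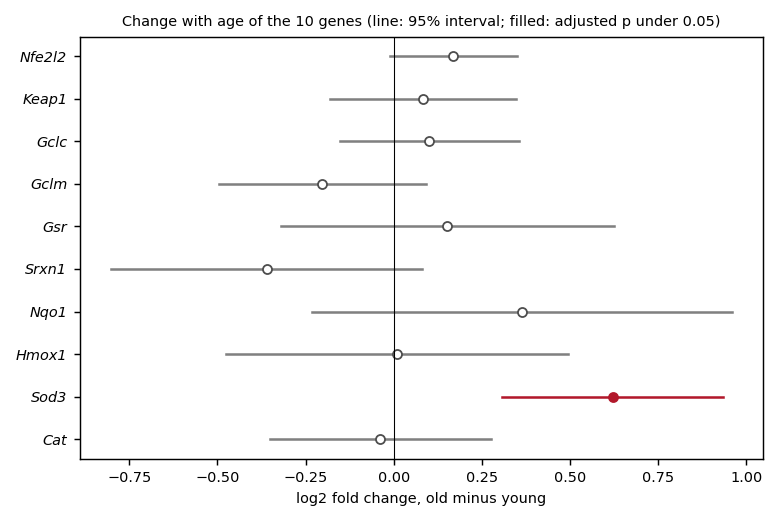
Log2 fold change of each gene (old minus young, horizontal axis) with its 95% interval as a line; filled red marks an adjusted p under 0.05. Sod3 at 0.62 is the one filled point, and the intervals of the other 9 include 0.

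Levels per kilobase of merged exon put the genes in nearly the same order at both ages. Srxn1 was first, at 5781 ± 1667 in old cells and 7270.5 ± 1254 in young cells (normalized counts per kilobase, SD, n = 4 each). Nfe2l2 was second, at 3375 ± 150 in old cells and 3007 ± 217 in young cells, and both genes lay apart from their neighbours at each age. In old cells Sod3 (1187 ± 265) and Hmox1 (1093 ± 79.0) came next with overlapping ranges. In young cells Hmox1 (1139 ± 404) stood before Sod3 (761 ± 67.0), again with overlap. Gclc, Cat and Gclm followed at both ages, each overlapping its neighbour, and then Gsr, Nqo1 and Keap1. Keap1 was lowest, at 96.4 ± 1.12 in old cells and 91.5 ± 11.5 in young cells, and it overlapped Nqo1. The ranks were the same with exon lengths from the full instead of the basic GENCODE set.

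**Figure D4:**
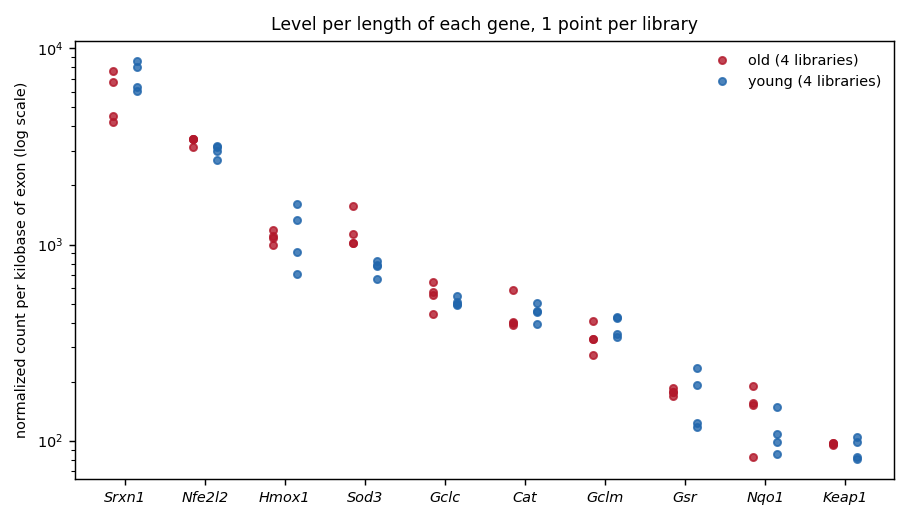
Normalized count per kilobase of exon on a log axis, 1 point per library, old left and young right of each gene, in the order of the young means. Srxn1 and Nfe2l2 stand above the other 8 genes in every library, and Keap1 and Nqo1 overlap at the low end.

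In old cells Hmox1 and Gsr had a coefficient of variation of 7.23% and 3.94%, against 35.5% and 34.3% in young cells. The median over 10792 genes that averaged 100 normalized counts or more was 12.6% in old and 12.8% in young cells. Keap1 and Nfe2l2 also varied less in old than in young cells, at 1.16% and 4.44% in old against 12.5% and 7.22% in young cells. The other 6 genes varied more in old cells. Among them Gclc was at 15.2% in old and 4.74% in young cells, Sod3 at 22.3% in old and 8.80% in young cells, and Cat at 21.1% in old and 9.91% in young cells. These differences in spread carry no test, and Sod3 and Cat were highest in old library 4. The endothelial marker sum, like Hmox1 and Gsr, was higher in young libraries 2 and 3 (36958 and 72325) than in 1 and 4 (19960 and 20361). The fibro-adipogenic sum was not split so, with 113762 in young library 1 and 87360 in young library 3. Among old libraries the endothelial sum was highest in library 3 (59114), where Hmox1 was lowest. The part of other cells in the spread was not tested.

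Genes with the most similar profile were found for Sod3, Nfe2l2 and Srxn1, the members with the smallest p, as the root mean square difference of centred log2 levels over the 8 libraries, among 11410 genes. Nearest to Sod3 were Igfbp4, an IGF-binding protein (0.098), Rarres2, the precursor of chemerin (0.11), and Vegfb, a growth factor (0.12). The age difference is part of the profile matched, so the direction of these genes is largely fixed by their choice. Their log2 fold changes were 0.46 for Igfbp4, 0.66 for Rarres2 and 0.58 for Vegfb. Nearest to Nfe2l2 were Papola (0.046), Ldha (0.048) and Mtarc2 (0.051). Among the nearest to Srxn1 were Errfi1, an inhibitor of the EGF receptor (0.092), and Tsr1 (0.14).

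A wider list of NRF2 targets held more genes that passed the test. Of 29 further targets, 8 rose in old cells and none fell, where 3.34% of all tested genes rose, and the median log2 fold change was 0.30. The list was chosen with earlier results of these data known, so its count is a description and not independent support. The count of 8 fell to 2, 5 and 3 when young library 1, 2 or 4 was omitted, and to 2, 3 and 2 when old library 1, 2 or 4 was. Over all tested genes, those higher fell from 495 to 249, 454, 247, 254, 212 and 225 in the same runs. With the fibro-adipogenic and tenocyte marker covariate the count of 8 became 0, the median log2 fold change being 0.24 and 22 of 29 positive, against 24 of 29 without it. Over all 14822 tested genes the model with that covariate called 3 higher and 0 lower.

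The 2 of these 8 with the smallest p were Akr1b8 and Ephx1. Akr1b8, an aldo-keto reductase, had 409, 376, 340.2 and 528 normalized counts in old libraries and 192, 147, 176 and 165 in young libraries. The ages did not overlap (log2 fold change 1.26 ± 0.17, adjusted p = 0.00365). Ephx1, the microsomal epoxide hydrolase, had 7383, 7535, 7381 and 6552 in old libraries and 4767, 4230.3, 4983 and 4652 in young libraries. These were also fully apart (0.63 ± 0.083, adjusted p = 0.00378). With the fibro-adipogenic and tenocyte marker covariate the changes were 1.15 ± 0.29 for Akr1b8 and 0.75 ± 0.14 for Ephx1 (adjusted p = 0.295 and 0.118). Over all genes the median SE was 0.28 in that model and 0.17 without the covariate.

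Htatip2, which encodes a protein related to short-chain dehydrogenases, averaged 302 ± 32.1 normalized counts in old cells and 148 ± 59.9 in young cells (1.10 ± 0.25, adjusted p = 0.0333). Pir, which encodes the iron-binding protein pirin, averaged 428 ± 32.1 in old cells and 280.3 ± 29.3 in young cells (0.61 ± 0.12, adjusted p = 0.0224). Both separated the ages fully. The NADPH-supplying enzymes G6pdx, the first of the pentose phosphate pathway (0.47 ± 0.11, adjusted p = 0.0359), and Me1, the cytosolic malic enzyme (1.01 ± 0.25, adjusted p = 0.0475), were also higher. Me1 had 226 in old library 3 and 232 in young library 2, so its ages touched. With the fibro-adipogenic and tenocyte marker covariate Me1 was at 0.22 (adjusted p = 0.850). Under 23 alternative settings the call was lost in 15 for G6pdx, 13 for Me1, 11 for Htatip2 and 8 for Pir. Sod3 lost its call in 10 of them, Ephx1 in 2 and Akr1b8 in 1.

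Iron and haem genes beyond Hmox1 rose in 3 of 18 cases and fell in none, where 3.34% of all tested genes rose, with a median log2 fold change of 0.11 over the list. With the fibro-adipogenic and tenocyte marker covariate none of the 3, Ftl1, Slc48a1 and Slc40a1, kept its call (adjusted p = 0.617, 0.594 and 0.515). That model called 3 higher genes among all 14822 tested. Under the 23 alternatives the call was lost in 11 for Ftl1, in 11 for Slc48a1 and in 3 for Slc40a1. Ftl1, the ferritin light chain that stores iron, averaged 3335 ± 317 normalized counts in old cells and 2469 ± 237 in young cells (0.43 ± 0.10, adjusted p = 0.0354). Slc48a1, a haem transporter of the lysosome, rose by 0.69 ± 0.17 (adjusted p = 0.0437), and both are also in the list of further targets. Slc40a1, the iron exporter ferroportin, had 799.6, 1111, 903 and 920.1 in old libraries and 623, 594, 523 and 588 in young libraries, with no overlap (0.67 ± 0.12, adjusted p = 0.0120).

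**Figure D5:**
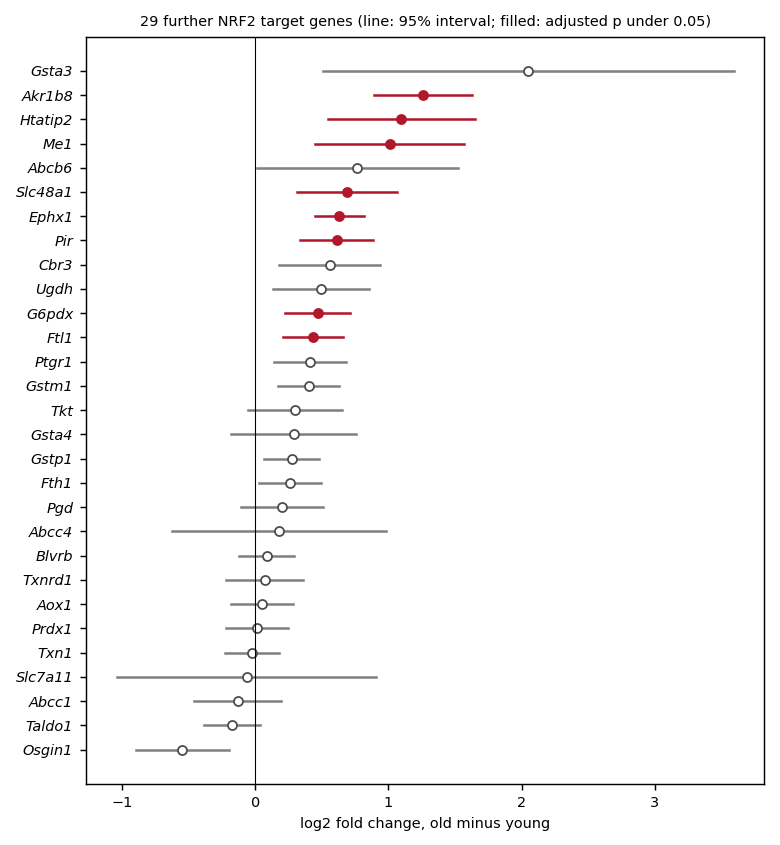
Log2 fold change (old minus young, horizontal axis) of 29 further NRF2 targets with 95% intervals, ordered by size; filled red marks an adjusted p under 0.05. The 8 filled points all lie above 0, from Ftl1 at 0.43 to Akr1b8 at 1.26, the open point of Gsta3 lies furthest right with a wide interval, and Osgin1 is lowest at -0.55.

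Not all targets shared this direction. Osgin1, an oxidative stress-induced growth inhibitor named after its values were seen, had 7747, 8198, 5440.4 and 5332 normalized counts in old libraries and 10624, 10666, 8701 and 8490.5 in young libraries. Its ages did not overlap, the old being lower, but it did not pass the test (-0.55 ± 0.16, adjusted p = 0.0765). Also named after their values were seen, Txnrd1, the cytosolic thioredoxin reductase, was at 0.073 ± 0.13 (adjusted p = 0.807) and Prdx1 at 0.014 ± 0.10 (adjusted p = 0.958). Slc7a11, the cystine importer that feeds glutathione synthesis, was low, at 31.2 ± 10.3 in old cells and 35.1 ± 19.5 in young cells. Of the 7 higher targets with a promoter in the table, 4 held an antioxidant response element core (G6pdx, Htatip2, Me1 and Pir), as did 11 of 19 of those not called.

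Controllers of NRF2 other than the 2 members gave 1 lower gene of 16, where 1.88% of all tested genes were lower. The count rests on a single gene. Syvn1, an ubiquitin ligase of the endoplasmic reticulum that can target NRF2, had 2296, 2148, 2037 and 2076 normalized counts in old libraries and 3532, 3373, 2810.1 and 3663 in young libraries. The ages were fully apart (-0.64 ± 0.098, adjusted p = 0.00656). Palb2, a DNA repair protein that can bind KEAP1, was near the floor of the test, at 28.5 ± 17.5 in old cells and 5.80 ± 2.64 in young cells (1.97 ± 0.58, adjusted p = 0.0821).

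In glutathione synthesis and turnover, 1 of 15 tested genes fell, where 1.88% of all tested genes did. Chac1, which degrades glutathione and is induced by the stress factor ATF4, had 180.2, 189.6, 214 and 127 normalized counts in old libraries and 246, 405, 502 and 337 in young libraries. The highest old value was below the lowest young one (-1.04 ± 0.24, adjusted p = 0.0333). Ggt5, which cleaves extracellular glutathione conjugates, was at 1.15 ± 0.30 (adjusted p = 0.0581).

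Of 27 genes for removal of superoxide and peroxide, 1 fell, where 1.88% of all tested genes did. Sesn2, a sestrin, had 1986, 2242, 2247 and 1672 normalized counts in old libraries and 3015, 3179.9, 3398 and 2826 in young libraries. These groups were apart (-0.61 ± 0.11, adjusted p = 0.0133), and Prdx4, the peroxiredoxin of the endoplasmic reticulum, did not pass (0.32 ± 0.090, adjusted p = 0.0726). Of 12 tested oxidant-producing enzymes, 1 rose, where 3.34% of all tested genes did. Nox4, a NADPH oxidase that makes hydrogen peroxide, had 223, 288, 99.8 and 271 in old libraries and 10.8, 63.6, 36.0 and 14.9 in young libraries. All old values exceeded the young ones (2.99 ± 0.54, adjusted p = 0.0132), and with the fibro-adipogenic and tenocyte marker covariate the change was 1.52 ± 0.72 (adjusted p = 0.576). Maob, a mitochondrial amine oxidase, was at 0.32 ± 0.11 (adjusted p = 0.118).

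None of 17 genes of the peroxisome, the compartment of catalase, passed limma, where 5.22% of all tested genes did. Of the 17, 1 had an unadjusted p under 0.05, as 20.8% of all tested genes had. EdgeR and DESeq2 called 0 and 1 of them, and 4.77% and 9.24% of all genes. The gene with the smallest p was Pex5, the import receptor of the compartment (-0.39 ± 0.12, adjusted p = 0.0968). Pex11a, a division factor, was at 0.53 ± 0.26 (adjusted p = 0.285). Over the 8 lists together, 10 of 130 tested genes rose and 3 fell, where 3.34% and 1.88% of all tested genes did. The 13 kept their sign in the models with a marker covariate, and 0 of the 13 kept the call with the fibro-adipogenic and tenocyte covariate. Of all 14822 tested genes that model called 3 higher and 0 lower, so a call lost in it is not particular to these genes.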

How the data were processed

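The values deposited by the authors are a signal per gene and library, normalized counts whose steps are those of gene counts over 1 size factor per library. The submitters' processing notes list DESeq2, featureCounts, STAR, Subread 1.5.1 and Trim Galore 0.4.2. Strandedness is not given in the sources used here. These notes name the builds GRCm39 and mm10 without roles, so no coordinates are given for the deposited genes, and promoter coordinates are those of the RefSeq table (GRCm38.p6). Dividing by the smallest step, between 0.601 and 1.07 normalized counts per read, turned 99.97% or more of the values above 0 into whole reads, to a tolerance of 0.01. Sums of these reads are depth as assigned to genes.

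The 14822 genes averaging 10 normalized counts or more were tested with limma 3.58.1 (R 4.3.3), variance trend on, on log2(normalized count + 1), which understates changes of low genes. Age was the only term, and p-values were two-sided with Benjamini-Hochberg adjustment over all tested genes. Intervals are 95% limma intervals. Alternatives were pseudocounts of 0.5 and 8, other filters, scalings and weights, marker covariates, a block for the replicate number, runs that omit a library, and, on recovered reads, DESeq2 1.42.0 and edgeR 4.0.16. The limma script was tested on simulated data. Counting errors given here cover counting error only, and no molecular identifiers are named in the sources used here.

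The members, gene lists, naming rule and tests were chosen with earlier results of these data known. The rule named all 10 members, every called gene of the lists, the 2 genes of smallest p in each list, and 3 genes of similar profile (mean of at least 50 normalized counts) for each of the 3 members with the smallest p; 1 of these similar genes is not reported here. Exon lengths are merged exons of GENCODE M21.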

Additional observations from a re-analysis of the deposited data

Results flagged for a closer look

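In groups of 4, a library was singled out when its gap to the nearest other, on the log2 scale, exceeded Dixon's 95% critical value as a share of the range of its group. Of 76 groups (38 genes at 2 ages) 4 were singled out, and chance gives about 1 in 20. Old library 4 was low for Nfe2l2 (7798 normalized counts, share of the range 0.933), high for Cat (1528, share 0.916) and low for Ephx1 (6552, share 0.852). This library also had the highest macrophage marker sum (5572 normalized counts) and the highest myofibre marker sum (25909) of all 8, and the part of either was not tested. Young library 4 was low for Ggt5 (52.1 normalized counts, share 0.939).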

How the results depend on the processing

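Under 23 alternatives Sod3 stayed higher in old cells (log2 fold change 0.43 to 0.81, adjusted p = 0.00587 to 0.623) and lost its call in 10. Besides runs without a library, these were eBayes without the trend and the fibro-adipogenic and tenocyte, macrophage and dissociation-induced gene covariates, under each of which 0 members were higher. Without 1 library, the members higher numbered between 0 and 1. No member was lower under any of the 23. In the order eBayes without the trend, fibro-adipogenic and tenocyte, macrophage and dissociation covariates, genes higher numbered 268, 3, 144 and 80 (495 as first tested), genes lower 134, 0, 70 and 24 (278), listed pathway genes higher 6, 0, 2 and 1 (10), and further targets higher 4, 0, 2 and 1 (8). Listed pathway genes lower, 3, were 0, 1 and 1 with the 3 covariates. DESeq2 gave 768 higher and 601 lower genes, 5 listed pathway genes lower and 1 further target lower. Without 1 library the ranges were 212 to 524 higher and 118 to 316 lower genes, 4 to 10 listed pathway genes higher and 2 to 4 lower, and 2 to 6 further targets higher. These runs have fewer samples, and otherwise the cause was not tested. The count over the further targets was added after the data were seen.

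Signs changed for members near 0. Keap1 was at -0.023 under quantile normalization and -0.063 with the dissociation covariate, and Gsr at -0.27 with that covariate too. Hmox1 was at -0.084 with edgeR, -0.0925 with DESeq2, -0.36, -0.19 and -0.39 with the 3 covariates in the order above, and between -0.20 and 0.20 without 1 library (-0.072, -0.20 and -0.0296 without young 1, young 4 and old 1). Cat was at 0.059 without young and old library 3, and between -0.18 and 0.017 without 1 library (0.015, 0.00115, 0.017 and 0.0055 without young 3, old 1, old 2 and old 3).

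The labels give replicate numbers without saying that equal numbers were handled together. Deviations from the age means correlated at 0.19, 0.072, 0.30 and -0.042 for numbers 1 to 4. The 0.30 of number 3 was the highest of all pairs. Both number 3 libraries also had the highest endothelial marker sum of their age (59114 normalized counts in old, 72325 in young). The cause was not tested. Young library 2 and old library 4 correlated best with each other (0.14), and young library 4 best with old library 1 (0.12). With the replicate block 559 genes were higher and 252 lower, Sod3 kept its call (adjusted p = 0.0141), and 1 further target was lower, while G6pdx and Ftl1 lost theirs (adjusted p = 0.0582 and 0.0694).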

Other observations

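Keap1 varied less between old libraries than reads of this number would by counting alone. Its coefficient of variation in old cells was 1.16%, below that of all but 0.139% of genes averaging 100 normalized counts or more, while the counting SD at its lowest read number, 399, is 5.01%. In young cells it was 12.5%, near the median of 12.8%. The cause was not tested, and with 10 genes looked at in 2 ages a single low value has no test here.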
